A study of Mus musculus with 16 samples.

Results

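Chemokines are small secreted proteins that draw leukocytes along a concentration gradient, and the 10 described here are made largely by myeloid cells. They are Cxcl2, Ccl3, Ccl4, Ccl5, Cxcl9, Cxcl10, Ccl2, Ccl6, Ccl9 and Cxcl16, taken by symbol from the 32285 genes of each count matrix, and all 10 were found in the 4 tumor and 6 CD45+ BM matrices used. RNA of single cells had been measured in 16 libraries, of which the 6 from lineage-negative c-Kit+ BM are not used here.

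The 4 tumor libraries came from 2208L, a transplantable Trp53-null mammary tumor line grown in the mammary fat pad of female BALB/c mice that had received their transplants at 7 to 8 weeks of age. The hosts were given vehicle (methylcellulose), IACS-70654, anti–PD-1 antibody, or IACS-70654 with anti–PD-1 (the combination), with 1 library per condition. IACS-70654 is an oral inhibitor of the bromodomain of the coactivators CBP and P300. Tumors were digested with collagenase and sorted for viable cells without selection of leukocytes. The CD45+ BM libraries were sorted as CD45+/Ter119-/DAPI- cells of tibia and femur, with 2 replicate libraries per group. They came from untreated female WT BALB/c mice without a tumor, from vehicle-treated 2208L tumor–bearing mice and from IACS-70654–treated 2208L tumor–bearing mice. The tumor-bearing mice were again female BALB/c mice with transplants at 7 to 8 weeks of age. WT mice differed from them in tumor, transplant surgery and dosing, and these cannot be told apart here. The age of the WT mice is not given in the sources used here. The series record gives a treatment of 7 days and a pooling of 3 mice per treatment group, while the sources differ on how long the BM mice were treated. The 2 replicates of a BM group may therefore be parts of 1 pool, and p-values would then measure only the spread between libraries. The 2208L model is 1 tumor line, and with 1 tumor library per condition no test between tumor conditions was made. Tumor intervals below are exact 95% intervals that cover counting error only, and they are too narrow where a few cells hold most of a gene's unique molecular identifiers (UMIs).

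The tumor libraries held 1974 kept cells (vehicle), 4739 (IACS-70654), 2053 (anti–PD-1) and 5064 (combination), with median depths of 4724 to 6332 UMIs per cell. The BM libraries held 4394 to 6154 kept cells, with median depths of 4113 to 6596.5 UMIs. No cell barcode was shared between libraries. Levels are a gene's UMIs per 1000000 UMIs of a cell class in a library (CPM), so they describe a class and not one cell.

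Cells were clustered and each cluster was named from marker genes that hold none of the 10 chemokines. In tumors this gave 7 classes with enough cells, namely tumor-associated macrophage (TAM)-like, monocyte-like, tumor-associated neutrophil (TAN)-like, dendritic cell (DC)-like, T or NK cell-like, epithelial tumor cell-like and fibroblast-like clusters, called by these names below. The summed TAM marker level was 58560 to 97730 CPM in the TAM class and at most 33600 in the monocyte class, and the TAN marker level was 27990 to 53640 CPM in TANs and at most 2216 in any other of these classes. The T or NK cell class held many TAM markers, at 23100 CPM with vehicle, 55720 with IACS-70654, 11490 with anti–PD-1 and 35220 with the combination. Its values are given beside that. None of the 10 chemokines, and no other chemokine or chemokine receptor, could become a variable gene for the clustering. Differences between classes are still a description.

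Chemokines fall into families by the receptor they engage. Cxcl2 acts on CXCR2 and draws neutrophils. Ccl3 and Ccl5 act on CCR1, and Ccl4 is a close relative of Ccl3. Cxcl9 and Cxcl10 act on CXCR3 of activated T and NK cells and are classic targets of interferon. Ccl2 acts on CCR2 and brings monocytes out of the BM, Ccl6 and Ccl9 are rodent CCR1 ligands, and Cxcl16 is a membrane-bound ligand of CXCR6. On GRCm38.p6, RefSeq places Cxcl2 (ENSMUSG00000058427) at chr5:90903899-90905938, Cxcl9 (ENSMUSG00000029417) at chr5:92321331-92328079 and Cxcl10 (ENSMUSG00000034855) at chr5:92346638-92348889. It places Cxcl16 (ENSMUSG00000018920) at chr11:70454389-70459984, Ccl2 (ENSMUSG00000035385) at chr11:82035577-82037452, Ccl5 (ENSMUSG00000035042) at chr11:83525778-83530518 and Ccl9 (ENSMUSG00000019122) at chr11:83572917-83578636. The last are Ccl6 (ENSMUSG00000018927) at chr11:83587886-83593087, Ccl3 (ENSMUSG00000000982) at chr11:83647843-83649378 and Ccl4 (ENSMUSG00000018930) at chr11:83648624-83664683. The values are counts of reads assigned to the whole gene, near its 3′ end.

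The promoters of the interferon targets and of Cxcl2 are shown because the tumor results on interferon targets and TANs turn on these genes. The sequences are those of RefSeq on GRCm38.p6, from 250 bases before to 50 bases after the transcription start, written 5′ to 3′ on the strand of the gene. RefSeq promoters were at hand for 6 of the 10 genes (Cxcl9, Cxcl10, Cxcl2, Ccl3, Ccl6 and Ccl9). Capitals mark matches, on either strand, to GAAANNGAA, a pattern of interferon-response elements, or to GGGA followed after any 2 bases by TTCC, a pattern of NF-κB sites.
Cxcl9 (chr5:92328030-92328329, minus strand): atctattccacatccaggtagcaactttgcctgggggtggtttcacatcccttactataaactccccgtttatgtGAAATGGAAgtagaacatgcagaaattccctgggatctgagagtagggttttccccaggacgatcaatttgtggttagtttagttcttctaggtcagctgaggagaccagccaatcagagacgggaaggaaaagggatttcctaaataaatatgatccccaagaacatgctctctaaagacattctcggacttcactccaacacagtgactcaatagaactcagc
Cxcl10 (chr5:92348840-92349139, minus strand): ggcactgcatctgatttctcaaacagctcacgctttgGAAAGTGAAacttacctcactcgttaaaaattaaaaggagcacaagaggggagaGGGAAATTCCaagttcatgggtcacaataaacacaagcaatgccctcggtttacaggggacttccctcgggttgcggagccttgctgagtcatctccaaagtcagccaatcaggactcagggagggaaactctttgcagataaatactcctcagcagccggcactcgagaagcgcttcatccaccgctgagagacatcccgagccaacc
Cxcl2 (chr5:90903649-90903948, plus strand): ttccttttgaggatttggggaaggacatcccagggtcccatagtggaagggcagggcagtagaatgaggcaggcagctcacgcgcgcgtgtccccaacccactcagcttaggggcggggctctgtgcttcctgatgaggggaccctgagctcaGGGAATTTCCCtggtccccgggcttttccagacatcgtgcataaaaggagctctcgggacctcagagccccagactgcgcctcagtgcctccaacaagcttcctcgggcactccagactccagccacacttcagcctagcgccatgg
The interferon-type pattern was found once each in Cxcl9, Cxcl10 and Ccl3, that is in 3 of the 6 promoters, against 8.56% of 32851 promoters of the same length. The NF-κB-type pattern was found in 2 of the 6, once in Cxcl10 and as 2 overlapping matches in Cxcl2, against 1.47% of all promoters. A match is a stretch of letters and not evidence of binding.

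**Figure D1:**
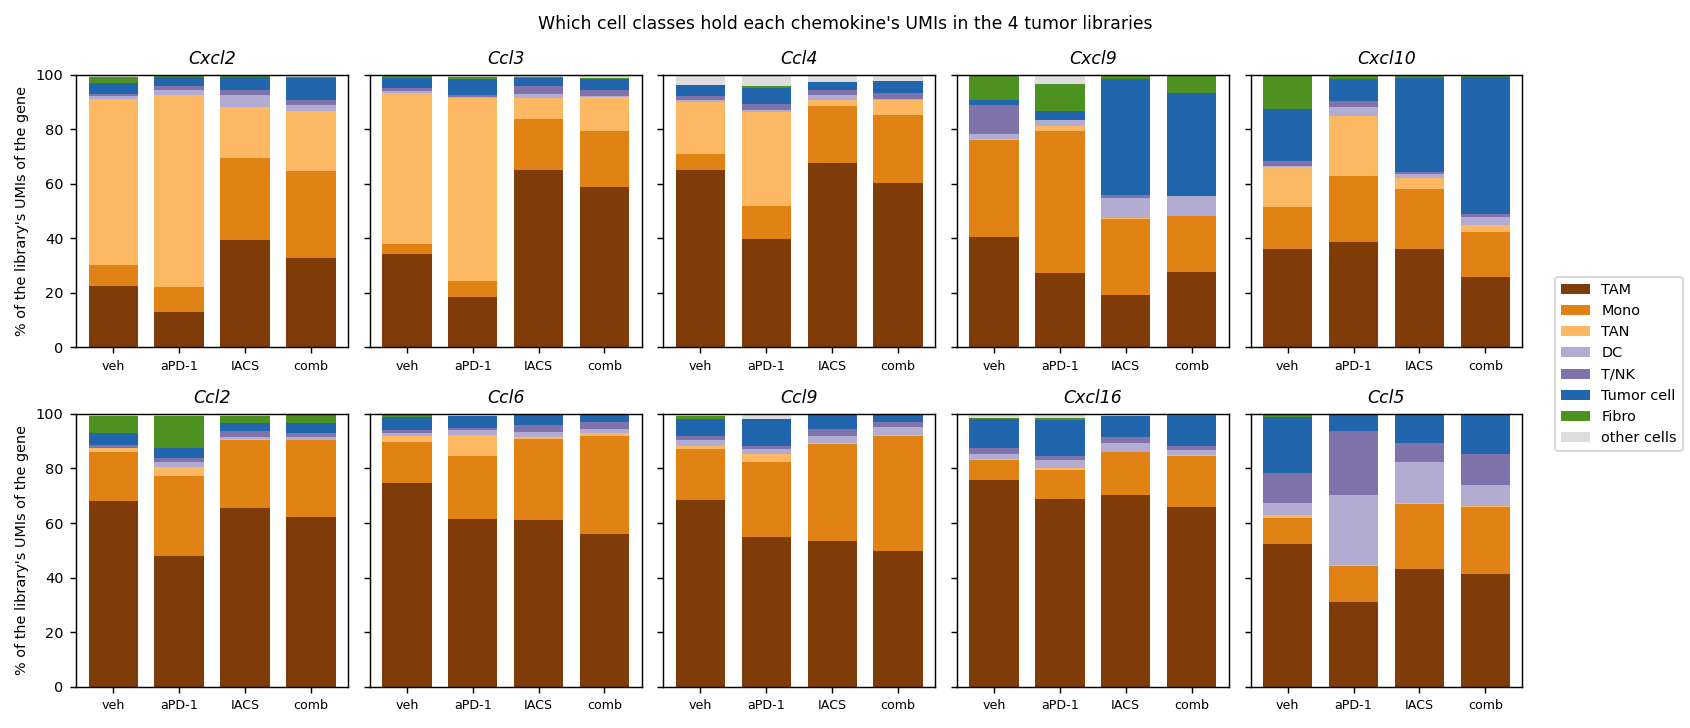
Bars show, for each chemokine and tumor library, the percent of the gene's UMIs that lay in each cell class, over all kept cells (veh, vehicle; aPD-1, anti–PD-1; IACS, IACS-70654; comb, combination). Cxcl2 and Ccl3 UMIs lay mostly in TANs with vehicle and anti–PD-1 and mostly in TAMs and monocytes with IACS-70654 and the combination, and the tumor cell part of Cxcl9 was 1.78% and 3.40% in the first pair and 42.5% and 37.7% in the second.

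Cxcl2, the CXCR2 ligand, was first of all a TAN transcript in these tumors. Its level in TANs was 21030 CPM with vehicle, 16330 with IACS-70654, 21490 with anti–PD-1 and 21990 with the combination. Monocytes followed at 2024 to 2657 CPM, then DCs at 1240 to 2055 and TAMs at 792.7 to 937.5, so that TANs stood above every other class in each library. DCs and monocytes were close and their order depended on the library. A UMI of Cxcl2 was seen in 89.1% of vehicle TANs at a median depth of 1211 UMIs, against 24.3% of vehicle B cells at 2093 UMIs, a class not expected to make it.

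Within TANs no Cxcl2 ratio to vehicle was past 2-fold. The log2 ratio was −0.36 for IACS-70654, 0.03 for anti–PD-1 and 0.06 for the combination, and −0.82, 0.04 and −0.27 at Leiden resolution 2. At that resolution a cluster of deeper cells with Apoe and C1qa among its leading genes was also named TAN. It held more IACS-70654 than vehicle cells. Over all cells, Cxcl2 stood at 1475 CPM with vehicle, 904.2 with IACS-70654, 1654 with anti–PD-1 and 996.3 with the combination. TANs were 23.7% of kept cells with vehicle and 27.0% with anti–PD-1, but 5.21% with IACS-70654 and 6.12% with the combination. With each class's share of UMIs set to that of the vehicle tumor, the log2 ratio over all cells went from −0.71 to −0.29 for IACS-70654 and from −0.57 to 0.08 for the combination. The TAN part of all Cxcl2 UMIs was 60.7% with vehicle and 18.7% with IACS-70654, while the monocyte part was 7.71% and 30.2%. In a level over all cells, fewer cells of a class and less RNA per cell cannot be told apart.

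In the fibroblast class, 34 to 46 cells per library, Cxcl2 was 836.4 CPM with vehicle and 235.6 to 336.9 in the 3 treated tumors. When the cells with the top 5% of doublet scores were left out, the log2 ratio went from −1.65 to 0.05 for IACS-70654 and from −1.31 to 0.48 for the combination, while for anti–PD-1 it went from −1.83 to −2.0. At Leiden resolution 2 the class parted into a cluster led by Col3a1 and Dcn (13 vehicle, 27 IACS-70654, 12 anti–PD-1 and 28 combination cells) and one led by Sparc and Igfbp7 with Tagln (33, 10, 22 and 14 cells), so that its make-up differed between libraries. Cxcl2 was 426.2, 220.3, 524.9 and 479.2 CPM in the first and 947.7, 422.7, 73.5 and 24.5 in the second.

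Ccl3, also known as MIP-1α, shared the TAN bias of Cxcl2. TANs stood at 3096 CPM with vehicle, 1831 with IACS-70654, 2955 with anti–PD-1 and 2458 with the combination. TAMs stood at 221.4, 351.4, 182.4 and 329.1 CPM in the same order, and monocytes at 185.8, 331.2, 246.3 and 299.7. The IACS-70654 tumor was thus lower than vehicle in TANs (log2 ratio −0.76, interval −0.89 to −0.63) and higher in TAMs (0.67, 0.58 to 0.76) and monocytes (0.83, 0.57 to 1.11). None of these passed the 2-fold limit used for naming a tumor difference. At Leiden resolution 2 the TAN ratio did (−1.06), in a class that included the Apoe and C1qa cluster described for Cxcl2. Over all cells Ccl3 was nearly level, at 237.9, 241.8, 238.4 and 196.0 CPM, whereas the TAM part of its UMIs went from 34.1% with vehicle to 65.1% with IACS-70654 and the TAN part from 55.4% to 7.85%.

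Ccl4 (MIP-1β), whose gene lies beside Ccl3 with an overlapping RefSeq span on the opposite strand, was spread more evenly over myeloid cells. TANs had 2231 CPM with vehicle, 1816 with IACS-70654, 2695 with anti–PD-1 and 3339 with the combination. TAMs had 882.9, 1189, 696.2 and 1090 CPM, and monocytes 606.8, 1206, 871.6 and 1179. TAMs held the largest part of the Ccl4 UMIs in every library, from 39.8% with anti–PD-1 to 67.7% with IACS-70654. The monocyte ratio for IACS-70654 fell just short of 2-fold (log2 0.99, 0.85 to 1.14). A Siglech-led cluster of 160 cells that could not be named also carried Ccl4, at 2022 CPM over the 4 libraries and with a UMI in 75.6% of its cells. Single TAMs tended to carry the 2 genes together, and after thinning each cell to 2000 UMIs Ccl4 was seen in 76.1% of Ccl3-positive and 38.8% of Ccl3-negative vehicle TAMs, with a like gap in the other libraries.

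**Figure D2:**
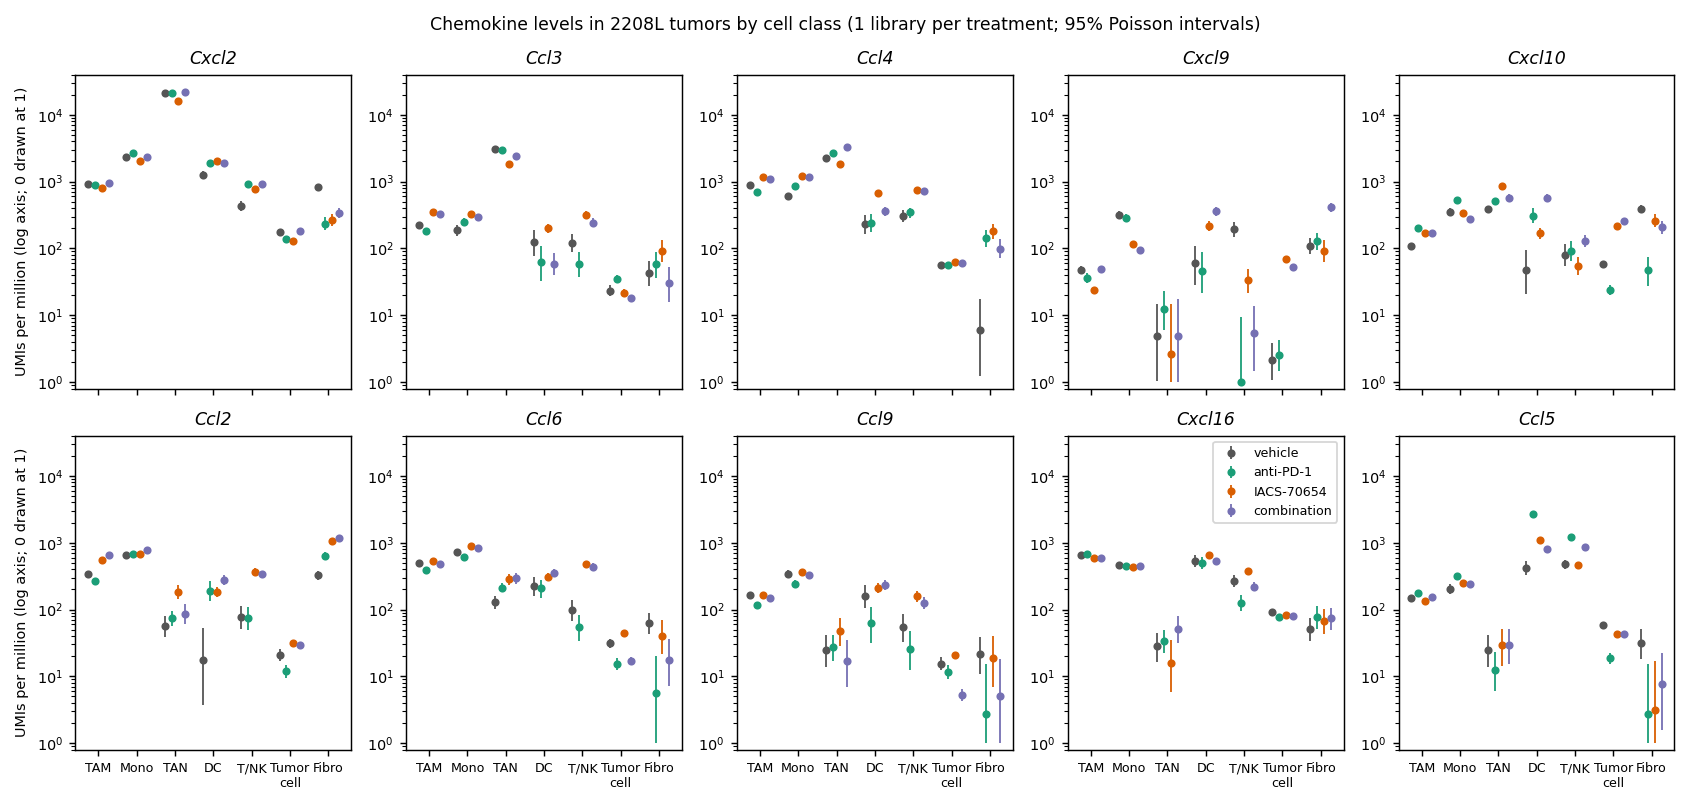
Each panel gives 1 chemokine's level (CPM, log axis, 0 drawn at 1) in the tumor cell classes, with 1 point per library and bars for the exact 95% counting interval. TAN levels of Cxcl2 lie at 16330 to 21990 CPM, above every other class, while Cxcl16 lies at 584.1 to 680.7 CPM in TAMs and at or below 51.5 in TANs.

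Across the 7 tumor classes and all kept cells, a ratio of at least 2-fold to vehicle with an interval that leaves out 1 was found for 23 of 77 chemokine-by-class pairs with IACS-70654 (19 higher, 4 lower), where 7.13% of all gene-by-class pairs were past the same limit. With the combination it was 23 of 77 (17 higher, 6 lower), against 7.12% of all pairs. With anti–PD-1 it was 16 of 76 (6 higher, 10 lower), against 3.19% of all pairs. These comparisons share 1 vehicle library. These shares of all pairs are pooled over classes. No share is given for a single class, here or for the related gene lists below. Counts of chemokine pairs by class follow, and whether their spread differs from that of all genes was not tested. TAMs had 1 pair past the limit with IACS-70654 and 0 of 10 with anti–PD-1 or the combination. DCs had 5 of 10, 4 of 9 and 4 of 10 and T or NK cells 6, 5 and 7 of 10, classes of 31 to 170 cells per library. Several T or NK cell ratios fell under 2-fold or reversed without C1q-positive cells, as given below. The median log2 ratio of the 10 chemokines in TAMs was 0.07 for IACS-70654, −0.31 for anti–PD-1 and 0.04 for the combination, where all counted genes had medians of 0.01, 0.04 and −0.01.

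**Figure D3:**
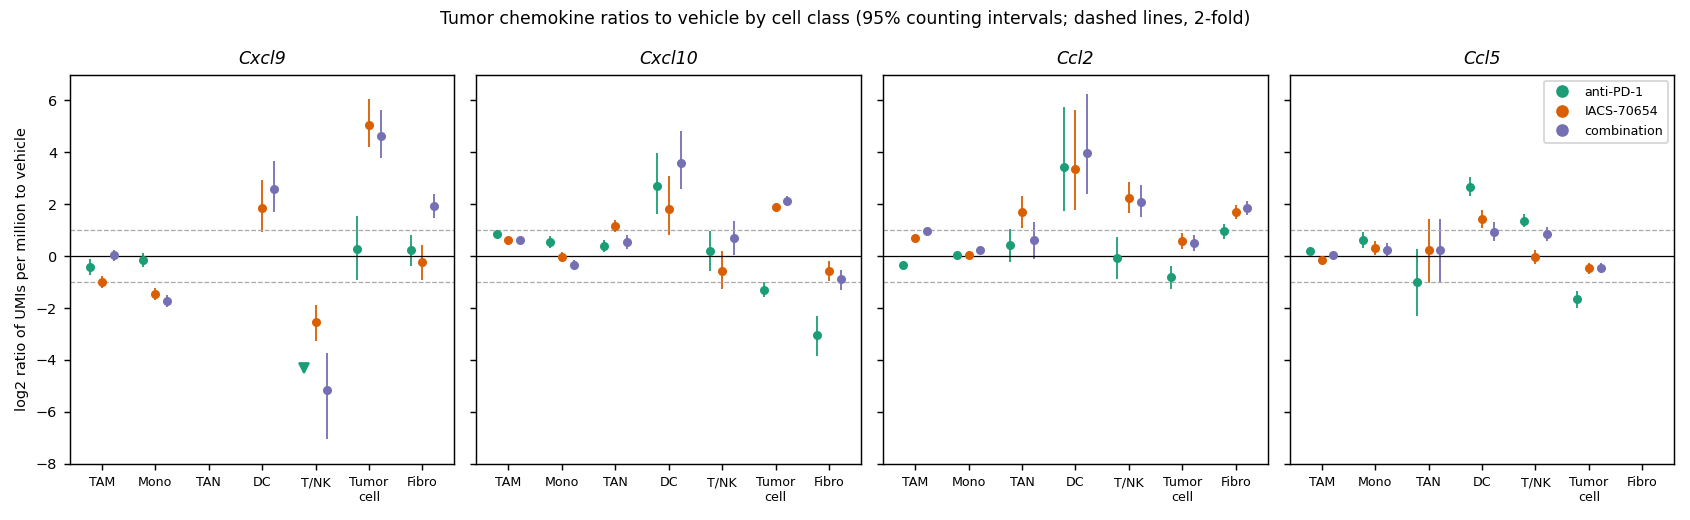
Points show the log2 ratio of each treated tumor library to vehicle for Cxcl9, Cxcl10, Ccl2 and Ccl5 in each class, with exact 95% counting intervals. A triangle marks an upper bound where the treated library held no UMI. Pairs with under 20 UMIs in the 2 libraries are not drawn. The highest point is Cxcl9 in tumor cells with IACS-70654 (5.05). Fibroblast Ccl4 (4.95, resting on 3 vehicle UMIs) is not drawn.

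Cxcl10 (IP-10) was higher in epithelial tumor cells of both tumors given IACS-70654. The tumor cell class stood at 58.9 CPM with vehicle, 216.0 with IACS-70654, 24.1 with anti–PD-1 and 257.6 with the combination. The log2 ratio to vehicle was 1.88 (1.70 to 2.05) for IACS-70654, 2.13 (1.96 to 2.30) for the combination and −1.29 (−1.58 to −1.001) for anti–PD-1. Of the 304 vehicle UMIs, 175 lay in 1 cell. Tumor cells with a UMI were 31 of 345 with vehicle, 117 of 815 with IACS-70654, 31 of 408 with anti–PD-1 and 196 of 1218 with the combination, at median depths of 13970 to 14930 UMIs. Tumor cells thereby held 34.6% of all Cxcl10 UMIs with IACS-70654 and 50.01% with the combination, against 19.1% with vehicle and 8.15% with anti–PD-1.

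Cxcl9 (MIG) followed in the same cells, at 2.1 CPM with vehicle, 70.4 with IACS-70654, 2.6 with anti–PD-1 and 52.9 with the combination. The log2 ratio was 5.05 (4.20 to 6.05, 873 against 11 UMIs) for IACS-70654 and 4.63 (3.79 to 5.64, 959 UMIs) for the combination. Cells with a UMI were 5 of 345, 41 of 815, 7 of 408 and 107 of 1218, where TANs, at median depths of 1201 to 1348 UMIs, had 3 of 468, 1 of 247, 6 of 554 and 2 of 310. With IACS-70654 the 8 richest tumor cells held 72.2% of the UMIs, and with the combination the 12 richest held 51.7%.

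Most of this lay in 1 tumor cell cluster led by Tes, Met and Krt18, with 43 vehicle, 283 IACS-70654, 62 anti–PD-1 and 420 combination cells. Its Cxcl9 UMIs were 848 of the 873 in IACS-70654 tumor cells and 855 of the 959 in combination tumor cells. Within this cluster alone Cxcl9 was 7.25 CPM with vehicle, 166.2 with IACS-70654, 0.963 with anti–PD-1 and 117.0 with the combination, and Cxcl10 was 282.6, 468.0, 58.7 and 527.0 CPM. Cells of the cluster with a Cxcl9 UMI were 1 of 43, 34 of 283, 1 of 62 and 72 of 420. The cluster made up a larger part of the tumor cell class in the 2 tumors given IACS-70654. The Cxcl9 difference was also there within it, against 1 vehicle cell with a UMI. Cxcl10 was higher than vehicle within it in the same 2 tumors, but by less than 2-fold. Most Cxcl10 UMIs of vehicle tumor cells lay in 1 cell, as given above. The cluster was not compared without that cell, so the size of its Cxcl10 difference is uncertain.

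The interferon-response genes Ifit2, Ifit3, Isg15 and Rsad2 moved with the CXCR3 ligands in tumor cells. All 4 were past 2-fold higher with IACS-70654, by log2 ratios of 2.46, 3.05, 1.68 and 2.35, and all 4 with the combination, by 3.21, 3.69, 1.85 and 2.89. None of the 4 was past 2-fold with anti–PD-1. Of 13 genes that induce or relay chemokine signals, 3 were past 2-fold higher with IACS-70654, among them Irf7 (1.67), and 1, Tnf, was lower (−1.56). The TAM marker sum in the tumor cell class was 3998, 4682, 1202 and 3479 CPM in the order vehicle, IACS-70654, anti–PD-1 and combination. Without the cells of the class that had 5 or more C1q UMIs, the log2 ratios were 5.27 and 4.80 for Cxcl9 and 1.78 and 2.20 for Cxcl10 with IACS-70654 and the combination.

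In myeloid cells the 2 CXCR3 ligands differed by class and treatment. Cxcl10 in TAMs was 110.4 CPM with vehicle, 170.2 with IACS-70654, 199.8 with anti–PD-1 and 169.9 with the combination, all under 2-fold. In TANs it was 382.9, 855.0, 504.0 and 564.3 CPM, and the IACS-70654 ratio was past 2-fold (log2 1.16, 0.91 to 1.41). At Leiden resolution 2, where a cluster of 97 deeper cells with Apoe and C1qa among its leading genes (15, 34, 17 and 31 cells) was also named TAN, that ratio was 0.58. Cxcl9 was lower in monocytes of both tumors given IACS-70654, at 317.9 CPM with vehicle, 116.7 with IACS-70654, 288.9 with anti–PD-1 and 95.2 with the combination. The log2 ratios were −1.45 (−1.67 to −1.22) for IACS-70654 and −1.74 (−1.97 to −1.51) for the combination. The vehicle value rested on 14 of 165 monocytes, of which 2 held 52.1% of the UMIs. After thinning to 2000 UMIs, 7.74% of vehicle, 5.93% of IACS-70654, 10.4% of anti–PD-1 and 7.25% of combination monocytes held a Cxcl9 UMI. Thinned Cxcl9 levels were 271.0, 157.0, 278.7 and 113.6 CPM in that order, so the IACS-70654 difference was then under 2-fold. Thinned monocyte Cxcl10 was 306.5, 349.4, 445.4 and 302.4 CPM. The Ly6c2-led monocyte cluster held 44 of 165 vehicle, 68 of 894 IACS-70654, 60 of 196 anti–PD-1 and 60 of 944 combination monocytes. This make-up bears on every monocyte comparison here. Within the other cluster Cxcl9 was 394.4, 119.0, 377.6 and 95.1 CPM, and within the Ly6c2-led one it was 40.3, 77.4, 79.6 and 97.1. In TAMs Cxcl9 was 48.3, 24.1, 36.4 and 49.4 CPM, with the IACS-70654 ratio at the 2-fold limit (−1.002, −1.23 to −0.77) and the combination level with vehicle (0.03). Both ligands were seen in 4 of 666, 9 of 2285, 2 of 509 and 19 of 2087 TAMs after thinning to 2000 UMIs, and with vehicle Cxcl10 was seen in 18.2% of Cxcl9-positive and 8.39% of Cxcl9-negative TAMs.

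The cluster with the most vehicle and anti–PD-1 TAMs held 309 of 696 and 238 of 536 cells, while IACS-70654 TAMs lay mostly in 2 others (938 and 735 of 2376), as did combination TAMs (918 and 734 of 2172), which bears on every TAM comparison here.

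Single TAMs and monocytes were next graded by how many of the 4 interferon-response genes they showed, after thinning each cell to 2000 UMIs. In vehicle TAMs Cxcl10 was 36.2 CPM in 456 cells with none of the genes, 149.2 in 191 cells with 1 or 2 and 1763 in 19 cells with 3 or 4. IACS-70654 TAMs gave 34.0, 151.7 and 1756 CPM, anti–PD-1 TAMs 28.0, 207.7 and 2273, and combination TAMs 35.8, 152.1 and 1408. Cxcl10 was thus higher in each successive grade in every library. The share of TAMs in the top grade was 2.85% with vehicle, 5.82% with IACS-70654, 4.32% with anti–PD-1 and 6.80% with the combination. Monocytes ran alike, from 32.2 to 53.7 CPM in the lowest grade to 2192 to 2514 in the highest, with 5.81%, 8.14%, 14.2% and 8.01% of cells in the top grade.

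Ccl4 was also higher in the top grade of TAMs, at 2526 CPM against 811.4 in the lowest with vehicle, 2673 against 1167 with IACS-70654, 3455 against 584.0 with anti–PD-1 and 1532 against 1154 with the combination, where the gap was smallest. Ccl6 was lower in the top grade of TAMs than in the lowest, at 184.2 CPM (7 UMIs in 19 cells) against 441.9 with vehicle and 289.5 against 618.1 with IACS-70654. The middle grade stood above the lowest with vehicle (557.6 CPM) and anti–PD-1 (488.5 against 382.4). Cxcl16 showed no such gradient.

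**Figure D4:**
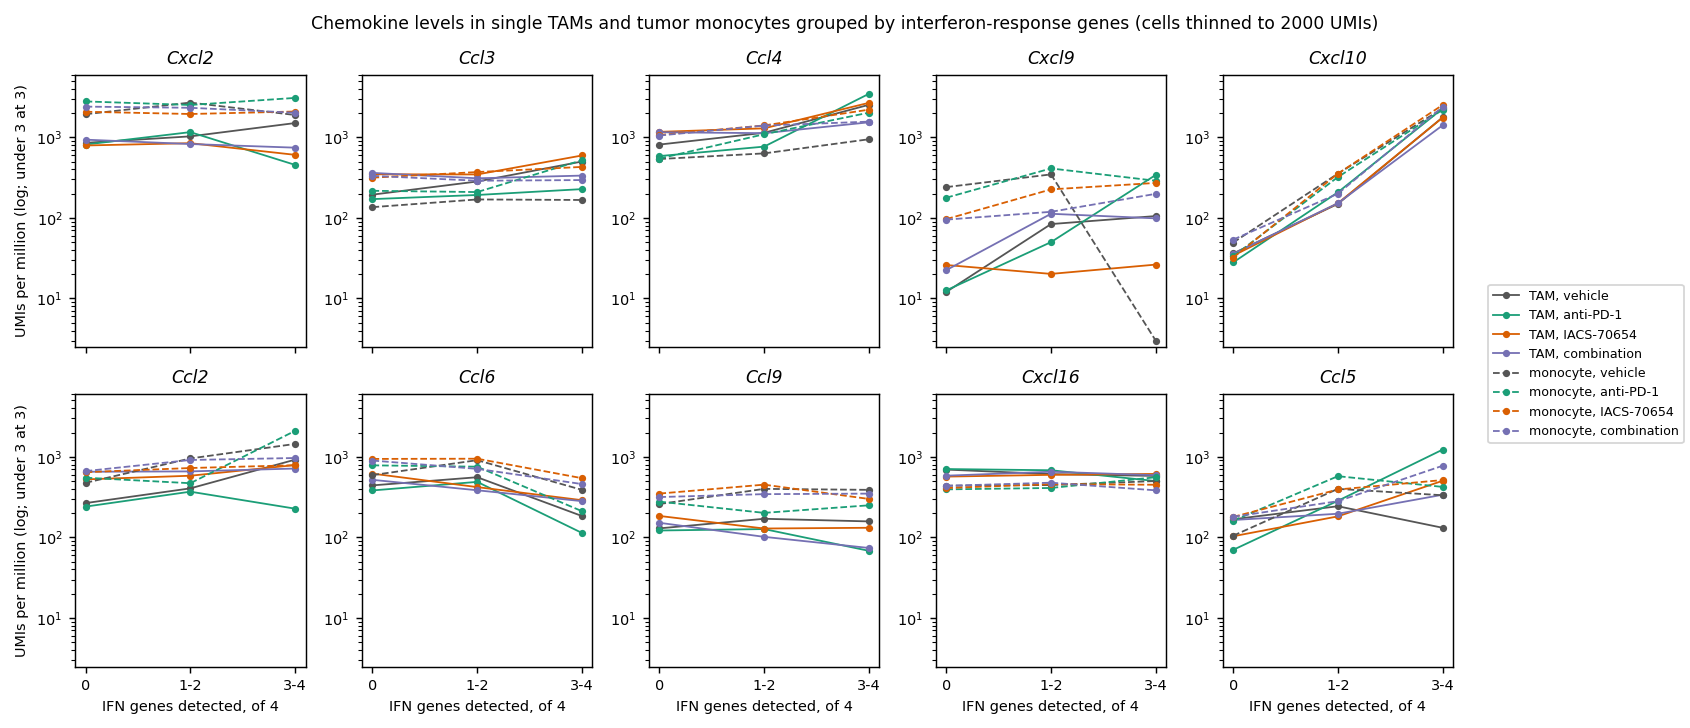
Lines join the level (CPM, log axis) of each chemokine in TAMs (solid) and monocytes (dashed) with 0, 1 or 2, and 3 or 4 of Rsad2, Ifit2, Ifit3 and Isg15 detected, per tumor library, after thinning to 2000 UMIs. Cxcl10 climbs from 28.0 to 53.7 CPM in the lowest grade to 1408 to 2514 in the highest in all 8 lines, while Cxcl16 stays nearly flat. The lone vehicle monocyte point of Cxcl9 at the axis floor is a group of 9 cells with no UMI.

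Ccl2 (MCP-1), the ligand that brings CCR2-positive monocytes to tissue, was higher in both tumors given IACS-70654. Over all cells it stood at 180.3 CPM with vehicle, 375.3 with IACS-70654, 132.9 with anti–PD-1 and 369.1 with the combination, log2 ratios of 1.06 (1.00 to 1.12), −0.44 and 1.03 (0.97 to 1.10). With the vehicle make-up of classes the first and last became 0.80 and 0.95.

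Fibroblasts had the highest Ccl2 level of the classes in the 2 tumors given IACS-70654, at 1047 and 1166 CPM against 324.3 with vehicle and 629.1 with anti–PD-1. Their log2 ratios were 1.69 (1.42 to 1.97) for IACS-70654, 0.96 for anti–PD-1 and 1.85 (1.59 to 2.11) for the combination. The TAM marker sum in these 34 to 46 cells per library was 2205, 11830, 4099 and 7458 CPM in the usual order. Without cells of 5 or more C1q UMIs the fibroblast log2 ratios were 1.79 for IACS-70654 and 1.96 for the combination. In the Col3a1- and Dcn-led part of the class, which held 13 of 46 vehicle, 27 of 38 IACS-70654, 12 of 34 anti–PD-1 and 28 of 42 combination cells, Ccl2 was 416.9, 1240, 1212 and 1527 CPM. In the Sparc-led part it was 299.1, 449.1, 302.7 and 375.2 CPM. TAMs, which held 48.0% to 68.2% of the Ccl2 UMIs, stood at 335.3 CPM with vehicle, 548.7 with IACS-70654, 265.8 with anti–PD-1 and 657.1 with the combination, and monocytes at 663.4, 689.2, 679.7 and 771.2, with no ratio past 2-fold in either class. In TANs the level was 56.4 CPM with vehicle and 182.1 with IACS-70654 (log2 ratio 1.69, 1.08 to 2.33). The TAM marker sum in TANs was 4081, 3365, 2757 and 3628 CPM in the usual order.

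Ccr2, the Ccl2 receptor, went the other way in TAMs, at 258.5 CPM with vehicle, 46.8 with IACS-70654 and 39.9 with the combination. Of 25 other chemokine ligands, 10 (IACS-70654) and 11 (combination) had enough UMIs in TAMs, with 1 and 2 past 2-fold higher, and 11 in monocytes, with 4 higher and 1 lower and with 3 higher and 1 lower. Ccl24, an eotaxin acting on CCR3, was past 2-fold higher in TAMs with IACS-70654 (log2 ratio 2.41) and the combination (2.30) and in monocytes (1.96 and 2.31), as was Ccl8 in monocytes (1.75 and 1.36), while Cxcl3, a CXCR2 ligand like Cxcl2, was lower in monocytes (−2.27 and −2.82). Ccl24 is itself among the leading genes of the larger monocyte cluster, whose share differed between libraries.

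Ccl6 and Ccl9, the CCR1 ligands, were highest in tumor monocytes. Ccl6 stood there at 734.5 CPM with vehicle, 884.7 with IACS-70654, 614.6 with anti–PD-1 and 820.4 with the combination, followed by TAMs at 491.6, 540.8, 390.1 and 488.4. Ccl9 stood at 339.7, 370.0, 242.8 and 326.6 CPM in monocytes and at 165.6, 166.4, 115.3 and 146.8 in TAMs. No ratio of either gene passed 2-fold in these 2 classes. Their higher level over all cells with IACS-70654, by a log2 ratio of 0.72 for Ccl6 and 0.66 for Ccl9, came to 0.28 and 0.14 with the vehicle make-up of classes.

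The TAM clusters differed in Ccl6. A cluster led by Ccl8, Mrc1, F13a1 and Folr2 held Ccl6 at 1427 CPM over the 4 libraries, against 236 to 616 in the other 4 TAM clusters. Within that cluster Ccl6 was 1044 CPM with vehicle, 1919 with IACS-70654, 945 with anti–PD-1 and 1494 with the combination, and Ccl2 was 531.7, 948.4, 397.9 and 913.8. Of the 2 monocyte clusters, the Ly6c2-led one held more Ccl6 (1360 against 783 CPM) and less Cxcl16 (83 against 471).

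Cxcl16 varied little between libraries in TAMs and monocytes. TAMs stood at 649.0 CPM with vehicle, 584.1 with IACS-70654, 680.7 with anti–PD-1 and 600.1 with the combination, DCs at 500.9 to 655.8 and monocytes at 434.7 to 466.0. The log2 ratio in TAMs lay between −0.15 and 0.07 and in monocytes between −0.10 and −0.05. Over all cells it was 0.25 for IACS-70654, −0.40 for anti–PD-1 and 0.02 for the combination, and in T or NK cells with anti–PD-1 it was −1.09, which turned to 0.17 without C1q-positive cells. A UMI was seen in 87.5% to 91.2% of TAMs, at median depths of 6066 to 6512 UMIs, and in 2.02% to 5.48% of TANs.

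Ccl5 (RANTES), a product of cytotoxic lymphocytes and activated DCs, was the one member led by T or NK cells and DCs. T or NK cells stood at 476.9 CPM with vehicle, 466.7 with IACS-70654, 1227 with anti–PD-1 and 858.0 with the combination, and DCs at 417.2, 1116, 2649 and 801.9. The anti–PD-1 log2 ratio was 1.36 (1.11 to 1.63) in T or NK cells, where it was 0.93 without C1q-positive cells, and 2.67 (2.30 to 3.05) in DCs. In DCs 308 of the 513 anti–PD-1 UMIs lay in 1 of 34 cells. In the T or NK cell cluster that holds the NK and T markers with few TAM markers, Ccl5 was 778.4 CPM in 78 vehicle cells, 803.8 in 66 IACS-70654 cells, 1724 in 101 anti–PD-1 cells and 1374 in 89 combination cells. Tumor cells ran opposite with anti–PD-1, at 18.6 CPM against 59.1 with vehicle (log2 ratio −1.67, −1.99 to −1.35). The TAM marker sum of that class was 1202 CPM with anti–PD-1 against 3998 with vehicle, and without its C1q-positive cells the Ccl5 ratio was −2.27.

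In T or NK cells the IACS-70654 log2 ratio was 2.25 for Ccl2, 2.29 for Ccl6, 1.53 for Ccl9, 1.40 for Ccl3 and 1.27 for Ccl4, where that class had 23100 CPM of TAM markers with vehicle and 55720 with IACS-70654. Without C1q-positive cells the ratios in the same order became 0.13, 0.49, 0.99, −0.08 and 0.46. In DCs Cxcl10 was higher in all 3 treated tumors (1.83, 2.70 and 3.60 for IACS-70654, anti–PD-1 and combination), on 8 vehicle UMIs in 31 cells, where the TAM marker sum was 4357, 6975, 3506 and 7372 CPM in the order vehicle, IACS-70654, anti–PD-1 and combination.

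By treatment the combination differed from IACS-70654 alone by at least 2-fold in 12 of 77 pairs (5 higher, 7 lower), against 2.20% of all pairs, and from anti–PD-1 alone in 20 of 75 (17 higher, 3 lower), against 8.37%. Against IACS-70654 alone, Cxcl9 was higher in TAMs (log2 ratio 1.04) and fibroblasts (2.14) and Cxcl10 in DCs (1.77) and T or NK cells (1.24), and Cxcl16 in TANs (1.70, on 21 against 6 UMIs). The T or NK cell class held more TAM markers with IACS-70654 than with the combination, as given above. Without its C1q-positive cells, its Cxcl10 log2 ratios to vehicle were −0.20 for IACS-70654 and 0.46 for the combination. Lower were Ccl6 (−1.37) and Ccl9 (−1.95) in tumor cells, Ccl2 (−1.09) and Ccl9 (−1.47) in TANs, Ccl3 in DCs (−1.75) and fibroblasts (−1.60) and Cxcl9 in T or NK cells (−2.61). No Cxcl9 ratio to vehicle could be formed in T or NK cells without C1q-positive cells. The TAN differences depended on the clustering, and at Leiden resolution 2 the TAN log2 ratios to vehicle for IACS-70654 and the combination were 1.42 and 1.09 for Cxcl16, 1.81 and 1.56 for Ccl2 and 1.38 and 0.70 for Ccl9. Against anti–PD-1 alone, tumor cell Cxcl9 (4.35) and Cxcl10 (3.42) and TAM Ccl2 (1.31) were higher, and monocyte Cxcl9 (−1.60), DC Ccl5 (−1.72) and tumor cell Ccl9 (−1.12) were lower. Most Ccl5 UMIs of the anti–PD-1 DCs lay in a single cell, as given above.

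In the CD45+ BM, 9 classes had at least 20 cells in every library, and they were tested on summed counts with edgeR's quasi-likelihood test and Benjamini-Hochberg adjustment over all genes of the class (the edgeR adjusted p below). Calls needed an adjusted p below 0.01 together with a log2 change of more than 0.5 in size, with TMM scaling. All kept cells of a library were tested in the same way, and the counts that follow cover the 9 classes and all kept cells. Between vehicle-treated 2208L tumor–bearing and WT mice, 9 of 59 chemokine tests were called (2 rose, 7 fell), against 6.32% of all tests. Between IACS-70654 and vehicle, 13 of 59 were called (12 rose, 1 fell), against 11.8% of all tests. Between IACS-70654–treated tumor-bearing and WT mice, 19 of 59 were called (11 rose, 8 fell), against 10.7% of all tests. In the 9 classes alone 5 (1 rose, 4 fell), 12 (11 rose, 1 fell) and 16 (10 rose, 6 fell) of 49 were called. No share of all tests is given for the 9 classes alone or for a single class. These 3 comparisons share libraries. Over classes and all kept cells, scaled to library totals alone the splits were 1 risen and 9 fallen, 16 risen and 1 fallen, and 12 risen and 6 fallen, in the same order. Without vehicle replicate 2, 6 of the 13 calls between IACS-70654 and vehicle were kept, and without any other single library 10 to 12 were. The TMM scaling and library totals differed in the median log2 change of all genes, for IACS-70654 against vehicle, by 0.26 in mature neutrophils, 0.23 in immature neutrophils and 0.26 in precursors.

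The CXCR3 ligands and Cxcl16 were nearly silent in BM. Cxcl16 gave 6 to 23 UMIs per whole library and Cxcl9 6 to 92, and in monocytes the Cxcl9 UMIs lay in 0 to 2 cells per library. Whole-library Ccl2 was 66 to 142 UMIs, of which 69.7% to 89.4% lay in monocytes. Cxcl10 in BM monocytes fell from WT (14.2 and 7.28 CPM) to vehicle (2.46 and 2.45), a log2 change of −2.12 ± 0.38 (SE, edgeR adjusted p = 6.312e-04), with 2.96 and 2.95 CPM under IACS-70654. The 2 WT values rested on 57 UMIs in 10 cells and 32 in 12 cells, and the change was no longer called without WT replicate 1 (−1.58), vehicle replicate 1 (−2.13) or vehicle replicate 2 (−2.10). Of the 4 interferon-response genes, Rsad2 (−2.52), Ifit3 (−1.60) and Ifit2 (−1.34) also fell in BM monocytes of vehicle-treated tumor-bearing mice, and Rsad2 (1.59) and Ifit2 (0.88) rose there from vehicle to IACS-70654. Over all CD45+ cells Isg15 (1.14) and Rsad2 (0.95) rose from WT to vehicle and fell from vehicle to IACS-70654 (−0.81 and −1.02).

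Ccl6 was the chief chemokine of BM neutrophils. In mature neutrophils it stood at 2080 and 2064 CPM in WT, 1041 and 1016 after vehicle, and 1542 and 1633 after IACS-70654, so that the 3 groups did not overlap. Vehicle was lower than WT by a log2 change of −0.94 ± 0.03 (SE, n = 2 libraries per group, edgeR adjusted p = 1.026e-25), and IACS-70654 was lower than WT by −0.58 ± 0.03 (edgeR adjusted p = 7.976e-20). Between IACS-70654 and vehicle the change of 0.36 (edgeR adjusted p = 5.193e-14) was under the size limit, while scaled to library totals it was 0.63 and was called, and the change from WT was −0.38 and was not. Mature neutrophils of WT, vehicle and IACS-70654 libraries lay mostly in different clusters, and Ccl6 is itself among the leading genes of 1 WT and 1 IACS-70654 cluster. Mature neutrophils held 68.7% to 80.4% of all Ccl6 UMIs.

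In immature neutrophils Ccl6 ended above WT. Here WT and vehicle cells mostly shared clusters while IACS-70654 cells lay apart, with 943 and 502 of the 1589 cells of IACS-70654 replicate 1 in 2 clusters that held 48 and 21 of the 1553 cells of vehicle replicate 1. It stood at 75.2 and 83.4 CPM in WT, 49.8 and 55.6 after vehicle, and 132.8 and 134.0 after IACS-70654. The rise from vehicle to IACS-70654 was 1.11 ± 0.05 (edgeR adjusted p = 1.457e-34) and that from WT was 0.77 ± 0.06 (edgeR adjusted p = 1.383e-21). The share of immature neutrophils with a Ccl6 UMI was 22.1% to 24.3% in WT and vehicle and 36.8% to 37.2% with IACS-70654. These shares were not matched for depth. Median depth over all kept cells was 4113 and 4276.5 UMIs in WT, 5330.5 and 5328 in vehicle and 6534 and 6596.5 with IACS-70654. In monocytes, in contrast, Ccl6 was 428.1 and 473.7 CPM in WT, 306.4 and 298.8 in vehicle and 309.9 and 268.2 with IACS-70654, and both tumor-bearing groups fell from WT, by −0.59 ± 0.06 and −0.65 ± 0.06 (edgeR adjusted p = 3.775e-07 and 1.511e-09). The difference between the immature neutrophil and monocyte changes from WT was 1.41 ± 0.08 (edgeR adjusted p = 4.514e-18). This pair was picked because both changes were called with opposite signs, so a small p was to be expected.

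Ccl6 also rose in plasmacytoid DCs, from 49.8 and 38.0 CPM in vehicle to 115.4 and 131.8 with IACS-70654 (1.48 ± 0.22, edgeR adjusted p = 4.131e-05), where WT had 88.1 and 103.4. In B cells it was 93.7 and 72.7 CPM in WT, 78.6 and 52.5 in vehicle and 123.2 and 164.6 with IACS-70654 (1.25 ± 0.24 from vehicle, edgeR adjusted p = 2.057e-03). The B cells lay in different clusters by group, with 34 of 50 and 79 of 106 IACS-70654 cells in a cluster led by Cd74 and H2-Aa that held 8 of 162 and 12 of 182 vehicle cells. The mature neutrophil marker sum in the B cell class was 1805 and 2058, 3699 and 4373, and 3534 and 5412 CPM in these groups, and its part in the Ccl6 change was not tested. The B cell call was lost without vehicle replicate 2 (0.96) or IACS-70654 replicate 2 (0.88).

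Ccl9 marked BM monocytes and basophils. Monocytes stood at 337.6 and 340.0 CPM in WT, 256.0 and 274.7 in vehicle and 273.3 and 264.0 with IACS-70654, with no change past the size limit. In mature neutrophils it was low but climbed over the groups, from 6.93 and 9.31 CPM in WT to 12.9 and 14.1 in vehicle and 33.9 and 40.0 with IACS-70654. The rise was 0.81 ± 0.20 from WT to vehicle (edgeR adjusted p = 2.295e-03, lost without WT replicate 1 or vehicle replicate 2) and 1.19 ± 0.12 from vehicle to IACS-70654 (edgeR adjusted p = 1.102e-10). Cells with a UMI were 1.77% to 2.65%, 3.36% to 3.65% and 8.17% to 8.27% of mature neutrophils, shares that were not matched for depth either.

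Ccl3 rose with IACS-70654 along the whole neutrophil line and in monocytes. In monocytes it stood at 64.6 and 59.2 CPM in WT, 65.7 and 78.8 in vehicle and 123.7 and 117.2 with IACS-70654 (0.75 ± 0.08 from vehicle, edgeR adjusted p = 8.274e-08). In mature neutrophils it was 23.1 and 16.8, 25.1 and 18.1, and 40.9 and 40.7 CPM (0.68 ± 0.11, edgeR adjusted p = 6.809e-06). In immature neutrophils it was 6.13 and 6.38, 5.41 and 3.65, and 12.9 and 12.2 CPM (1.27 ± 0.16, edgeR adjusted p = 7.216e-11), and in precursors 6.13 and 4.31, 7.86 and 7.73, and 14.7 and 14.5 (0.65, edgeR adjusted p = 7.529e-04). In each of these 4 classes both IACS-70654 libraries lay above the other 4. IACS-70654 mature and immature neutrophils lay mostly in other clusters than vehicle ones, as given for Ccl6. Of precursors, 390 of 622 cells of vehicle replicate 1 lay in a cycling cluster led by Hist1h2ap and 129 in one led by Elane, against 281 and 364 of 711 cells of IACS-70654 replicate 1. Without vehicle replicate 2 the changes in mature neutrophils (0.43) and precursors (0.63) were no longer called.

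Cxcl2 in BM lay mostly in mature neutrophils, which held 52.5% to 64.3% of its UMIs. They stood at 91.2 and 87.1 CPM in WT, 92.4 and 79.4 in vehicle and 132.2 and 122.1 with IACS-70654. This change was under the size limit (0.31, edgeR adjusted p = 6.045e-05) but was 0.57 and called with library totals. In immature neutrophils Cxcl2 was 26.7 and 22.4, 23.2 and 21.4, and 38.7 and 35.8 CPM, a rise of 0.51 ± 0.08 (edgeR adjusted p = 1.003e-07) that was no longer called without vehicle replicate 2 (0.44) or IACS-70654 replicate 1 (0.47). The neutrophil clusters led by Il1b and Csf3r had the highest Cxcl2 levels among the neutrophil clusters, at 109 and 167 CPM.

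Basophils, here the class of basophils or mast cells with 20 to 48 cells per library, were the richest BM source of Ccl3 and Ccl4 per UMI. Ccl4 stood in them at 1550 and 951.1 CPM in WT, 225.0 and 266.3 in vehicle and 479.8 and 336.2 with IACS-70654. Vehicle fell from WT by −2.31 ± 0.22 (edgeR adjusted p = 1.092e-09) and IACS-70654 by −1.65 ± 0.21 (edgeR adjusted p = 2.317e-06). Ccl3 in basophils was 1158 and 1026, 683.8 and 687.0, and 919.7 and 524.2 CPM and was not called. Ccl9 in basophils was 887.1 and 1092 CPM in WT and 219.9 and 490.0 with IACS-70654 (−1.48 ± 0.23, edgeR adjusted p = 3.369e-05, −1.04 and lost without IACS-70654 replicate 1). Neither its change from WT to vehicle (−0.79) nor that from vehicle to IACS-70654 (−0.68) was called.

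Ccl4 in BM monocytes was 9.48 and 11.2 CPM in WT, 16.7 and 9.78 in vehicle and 33.3 and 24.4 with IACS-70654, a rise of 1.11 ± 0.19 from vehicle (edgeR adjusted p = 1.171e-04, 0.77 and lost without vehicle replicate 2). The monocyte part of all Ccl4 UMIs was 4.28% and 6.93% in WT, 20.8% and 13.04% in vehicle and 44.1% and 45.7% with IACS-70654, and the basophil part was 67.7% and 48.5%, 17.7% and 25.0%, and 13.5% and 12.1%.

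Ccl5 was in BM a T or NK cell gene, at 3400 and 3378 CPM in WT, 3221 and 2996 in vehicle and 4126 and 4876 with IACS-70654. The last change was not called (0.46 ± 0.15 from vehicle, edgeR adjusted p = 0.159). Over all CD45+ cells Ccl5 stood at 90.3 and 57.2 CPM in WT and at 18.9 and 17.1 in vehicle and 16.2 and 16.6 with IACS-70654, and the libraries held 122 and 80, 22 and 21, and 30 and 32 T or NK cells in the same order. Ccl5 is itself the leading gene of the T or NK cell cluster. A called fall in plasmacytoid DCs with IACS-70654 (−4.63) rested on 1 cell of vehicle replicate 2 and turned to 4.98 without that library.

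**Figure D5:**
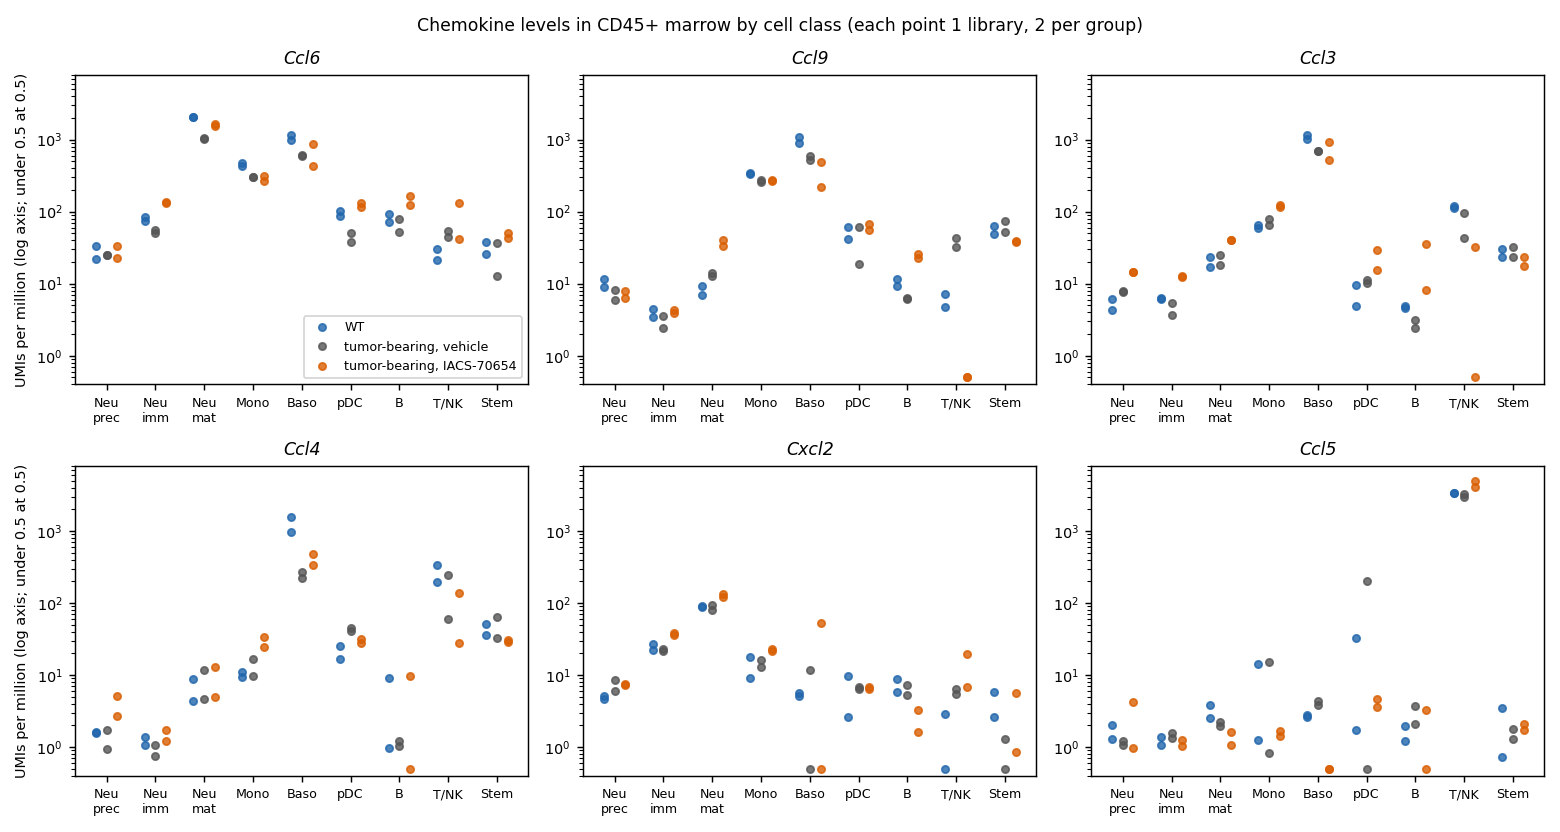
Points give the levels of Ccl6, Ccl9, Ccl3, Ccl4, Cxcl2 and Ccl5 (CPM, log axis, values under 0.5 drawn at 0.5) in 9 BM classes. Each point is 1 WT, vehicle or IACS-70654 CD45+ BM library. Ccl6 in mature neutrophils lies at 2080 and 2064 CPM in WT, 1041 and 1016 for vehicle, 1542 and 1633 for IACS-70654.

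Among the fixed lists of related genes, 1 of 6 receptors and scavengers tested in BM monocytes, Ccr2, fell with IACS-70654 against vehicle (−0.58). In immature neutrophils Ccrl2 rose (0.69) and Ccr1 fell (−0.71) of 4 tested, and in precursors Ccrl2 rose (0.69) and Ccr1 (−1.22) and Cxcr2 (−0.91) fell of 5 tested. Of 25 other ligands, Ccl24 rose in monocytes (1.39), mature neutrophils (3.098) and immature neutrophils (1.92), among 3 tested in each, and Ccl25 rose in mature neutrophils (1.05). All 13 inducers and relay genes were tested in the monocyte and neutrophil classes. Between IACS-70654 and vehicle, 1 fell in mature neutrophils, the interferon-response factor Irf1 (−0.52), and in precursors Ifngr1 rose (1.28) while Tnf (−0.84) and Rel (−0.68) fell. From WT to vehicle, Il1b (0.92) and Ifngr1 (0.79) rose in mature neutrophils.

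The genes whose class pattern was most like that of a member were named from the correlation of log2(CPM + 10) over 28 class-by-library points in tumors and 54 in BM, points that share libraries and depth. In tumors the closest to Cxcl2 were Ptgs2 (r = 0.98), Il1b (0.98) and Trem1 (0.97), to Ccl3 Mapkapk2 (0.96), to Ccl6 Csf1r (0.94), to Cxcl16 Plekho1 (0.95), to Ccl5 Klrk1 (0.94) and to Cxcl10 Tapbp (0.79). In BM the closest to Ccl5 were Xcl1 (0.98) and Il2rb (0.97), and to Ccl6 Nlrp3 (0.94).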

How the data were processed

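RNA of single cells was measured with 10x Chromium 3′ libraries and CellPlex tags. The authors deposited matrices of UMI counts per gene and cell, made with Cell Ranger (7.1.0 for tumors and 7.2.0 for BM, per the file headers) on mm10 and not normalized, and each sample's cells had been separated by their tag before deposit. The 10 chemokines, the gene lists and the tests were chosen with earlier results of these data known.

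Cells with over 200 and under 6000 genes and at most 10% mitochondrial UMIs were kept. Tumor and CD45+ BM cells were clustered separately (leidenalg 0.10.2, 2000 variable genes, 30 principal components, 20 neighbors, Leiden resolution 1). Clusters were named from fixed marker lists. Scrublet's own threshold (run in scanpy 1.11.5) marked 0.166% of tumor and 0.285% of BM cells, so it did not work and doublets were kept. Leaving out the top 5% of its scores is an alternative.

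BM counts were summed per library and class and tested over the 6 libraries with edgeR 4.0.16 (glmQLFit, TMM, filterByExpr, R 4.3.3), and calls needed an adjusted p below 0.01 together with a log2 change of more than 0.5 in size. The study itself tested single cells. Tumor classes, 1 library per condition, were compared by log2 CPM ratios with exact conditional 95% intervals, for pairs with at least 20 UMIs in the 2 libraries, and a ratio was past the limit at 2-fold. The 10 chemokines are all named, with up to 3 genes per direction from each related list. For some of the chemokines, up to 3 of the most alike genes are named. In simulated BM counts with 200 genes changed by a log2 of 1, the test recovered 97.5% of them in mature neutrophils (10738 genes) and 91.5% in monocytes (11233 genes) with 0 false calls. The changed genes were drawn only from well-counted genes, and every gene had the same fixed spread. Recovery was thus not tried for genes with few UMIs, nor false calls where a few cells hold most UMIs. Total depth was 15590289 to 43594797 UMIs per tumor library and 27816638 to 54510172 per BM library. The 6 replicate libraries differed within each group by more than the counting noise of UMIs, with a chi-square per gene of 2.72 to 4.44. That noise leaves out the drawing of different cells, so the value cannot show whether replicates came from separate pools. DESeq2 1.42.0 and other settings were tried as alternatives. Some genes of the related lists are not reported here.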

Additional observations from a re-analysis of the deposited data

Results flagged for a closer look

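In BM, 6 pairs of classes changed in opposite directions between IACS-70654 and WT, each with a tested difference (interaction in edgeR's quasi-likelihood fit, Benjamini-Hochberg adjusted). The pairs were chosen because both changes were called with opposite signs, so a small p was to be expected and adds little to the separate calls. For Ccl4, the monocyte change exceeded the basophil change by a log2 of 3.18 ± 0.26 (edgeR adjusted p = 1.742e-30). For Ccl9, the mature neutrophil change exceeded the basophil change by 3.63 ± 0.27 (edgeR adjusted p = 6.64e-38). For Ccl6, the immature neutrophil change exceeded that of mature neutrophils by 1.36 ± 0.06 (edgeR adjusted p = 7.007e-54) and that of monocytes by 1.41 ± 0.08 (edgeR adjusted p = 4.514e-18). The B cell change of Ccl6 exceeded that of mature neutrophils by 1.44 ± 0.19 (edgeR adjusted p = 6.289e-12) and that of monocytes by 1.57 ± 0.20 (edgeR adjusted p = 2.407e-09). The B cell change from WT itself was no longer called without WT replicate 1 (1.13), WT replicate 2 (0.77) or IACS-70654 replicate 2 (0.59).

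In the tumors, 9 pairs of classes differed from vehicle in opposite directions, each past 2-fold. With 1 library per condition these differences were not tested. The gap between the log2 ratios of tumor cells and of T or NK cells for Cxcl9 was 7.59 with IACS-70654 and 9.78 with the combination. Without C1q-positive cells no Cxcl9 ratio to vehicle could be formed in T or NK cells, since a library then held no UMI of it. With anti–PD-1 the gap was 5.73 for Cxcl10 (DCs above fibroblasts, where 174 of 195 vehicle fibroblast UMIs lay in 1 cell), 2.90 for Cxcl2 (T or NK cells above fibroblasts) and 4.33 for Ccl5 (DCs above tumor cells). With the combination T or NK cells stood above fibroblasts by 2.39 for Cxcl2 and 3.98 for Ccl6, above DCs by 2.08 for Ccl3 and above tumor cells by 2.73 for Ccl9. Some of these opposite directions were lost with other settings. The fibroblast Cxcl2 ratio with the combination was 0.48 without the top 5% of doublet scores, the T or NK cell ratios with the combination were −0.48 for Ccl3 and 0.055 for Ccl9 without C1q-positive cells, and that of Ccl9 was −0.61 with cells thinned. The T or NK cell class held TAM markers at 23100 CPM with vehicle and 35220 with the combination, and at a higher level still with IACS-70654, as given above.

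Classes too small to compare also held some of the genes. Ccl4 stood at 1134 CPM (958.6 to 1332) in 15 B cells of the IACS-70654 tumor against 76.4 CPM (36.6 to 141) in 37 vehicle B cells. Ccl3 stood at 129.1 CPM in 40 endothelial cells of the combination tumor against 12.4 in 11 vehicle endothelial cells, on 29 UMIs and 1 UMI.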

How the results depend on the processing

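Of the BM changes that were called, 616 recomputed values kept their direction and call, 65 kept the direction but lost the call and 1 reversed, Ccl5 in plasmacytoid DCs without vehicle replicate 2 (4.98, with −5.61 without vehicle replicate 1 as the other end of its range). Counts of BM calls (vehicle against WT, IACS-70654 against vehicle, IACS-70654 against WT) were 9, 13 and 19. They were 17, 19 and 33 at an adjusted p under 0.05 with no size limit, 15, 21 and 31 with every gene of at least 1 UMI, 5, 5 and 11 with the cell filter read as UMIs, 7, 10 and 16 with DESeq2, and 10, 17 and 18 with library totals, a setting chosen after seeing the data. Leiden resolution 0.5 gave 19 calls between IACS-70654 and vehicle. Leaving out 1 library gave 8 to 11, 8 to 15 and 17 to 25. Replicate numbers did not pair the libraries (correlations of deviations −0.037, −0.0041 and −0.0088), and with the replicate block the counts were 9, 14 and 23.

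In tumors, 1558 recomputed ratios stayed within the interval of the main value, 387 moved and 10 reversed. Counts past 2-fold were 23 with IACS-70654, 16 with anti–PD-1 and 23 with the combination. At 1.5-fold they were 37, 25 and 35. With anti–PD-1 they were 9 with the filter read as UMIs, 10 at Leiden resolution 2 and 8 with cells thinned to 1000 UMIs. Without C1q-positive cells of other classes, a setting also chosen after seeing the data, the ratio reversed for Ccl3 in T or NK cells (−0.084 with IACS-70654, −0.48 with the combination), Ccl2 there with the combination (−1.004), Cxcl16 there with anti–PD-1 (0.17) and tumor cell Ccl6 with anti–PD-1 (0.52, and 1.41 with the filter read as UMIs). Thinning reversed T or NK cell Ccl3 with anti–PD-1 (0.15) and Ccl9 with the combination (−0.61). Without the top 5% of doublet scores fibroblast Cxcl2 reversed (0.050 with IACS-70654, 0.48 with the combination). The causes were not tested.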

Other observations

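The Siglech-led tumor cluster without a name held Ccl4 at 2791 CPM with vehicle (20 cells), 1768 with IACS-70654 (70 cells), 2368 with anti–PD-1 (18 cells) and 1971 with the combination (52 cells), while its Ccl3 was 105 CPM over the 4 libraries. A second T or NK cell cluster led by Il17a and Cd3g, which also held TAM markers, had Ccl6 at 163.8, 592.8, 137.6 and 600.7 CPM in the order vehicle, IACS-70654, anti–PD-1 and combination.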
